A study of Mus musculus with 17 samples.

Results

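Fibronectin and the matricellular proteins were represented by 10 genes: Fn1, Thbs1, Thbs2, Thbs3, Tnc, Postn, Sparc, Vcan, Spon2 and Smoc2. The list was set by gene name, and each name matched 1 of the 55450 genes of the bulk table and 1 of the 35849 genes of the single-cell tables. The genes were measured in cultured cell lines from female MMTV-PyMT mice of the FVB/NJ strain, aged 10 to 12 weeks, in which the mouse mammary tumor virus promoter drives the polyoma middle T antigen in mammary epithelium. All groups carried this transgene and none was treated. Bulk RNA-seq covered 14 libraries, 2 for each of 7 groups. These were the primary tumor line of the mammary fat pad (MFP, with no CD44 status given) and lines from metastases in the lymph node (LN), in the bone marrow (BM) and in the lung, each sorted as CD44low/EpCAMhigh or CD44high/EpCAMhigh. The 2 replicates of a group were distinct clonal isolates from different mice, so that n = 2 in every bulk group. Single-cell RNA-seq covered 1 library each of the lung CD44low (lungL), lung CD44high (lungH) and LN CD44high (lymphH) lines. As a model, each line had been expanded for about a month under conditions favoring cancer cell growth, so that no tumor microenvironment was sampled.

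Fibronectin is a large secreted glycoprotein that cells assemble into fibrils through integrins, and its fibrils form a scaffold for collagens and other matrix proteins. Matricellular proteins are secreted into the same matrix but act less as structure than as signals that change cell adhesion, protease activity and growth factor availability. In the breast they are made mainly by stromal fibroblasts and by tumor cells with mesenchymal features, and fibronectin, tenascin-C and periostin have been studied as parts of the niches of disseminated breast cancer cells.

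The labelled identity of the lines was checked first, since matrix genes are strongly expressed by fibroblasts. Epcam, the epithelial surface protein used for the sort, had 837 and 725 TPM (transcripts per 1000000) in the MFP libraries and from 315 to 941 TPM in those of LN and BM. In lung CD44low cells it was listed at 0 in both libraries, and in lung CD44high cells it was at 0.23 and 0.86 TPM. The 10 epithelial markers summed to 6753 and 7619 TPM in the MFP libraries, 2212 to 4454 TPM in those of LN and BM, 1.74 and 2.36 TPM in lung CD44low and 16.0 and 87.6 TPM in lung CD44high cells. Epcam and Cdh1, E-cadherin, were thus at or near 0 in all lung libraries, while the keratins Krt8 (5.26 and 27.8 TPM) and Krt18 (10.1 and 58.9 TPM) were still detected in lung CD44high cells. The 8 fibroblast markers summed to 4708 and 5117 TPM in lung CD44low cells, of which the proteoglycan decorin (Dcn) made up 4091 and 4315 TPM, against 85.7 and 194.8 TPM in lung CD44high cells and at most 19.9 TPM in any other library. Acta2, smooth muscle actin, was at 657 and 711 TPM in lung CD44low cells and at most 1.36 TPM elsewhere. The 5 cycling markers summed to between 1.75 and 27.8 TPM in the 4 lung libraries and to at least 329 TPM in the others. Macrophage markers summed to at most 39.2 TPM and endothelial markers to at most 0.21 TPM in any library. In bulk RNA, more cells of one type and more RNA per cell cannot be told apart. The part of these marker differences in the lung results given next was not tested.

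**Figure D1:**
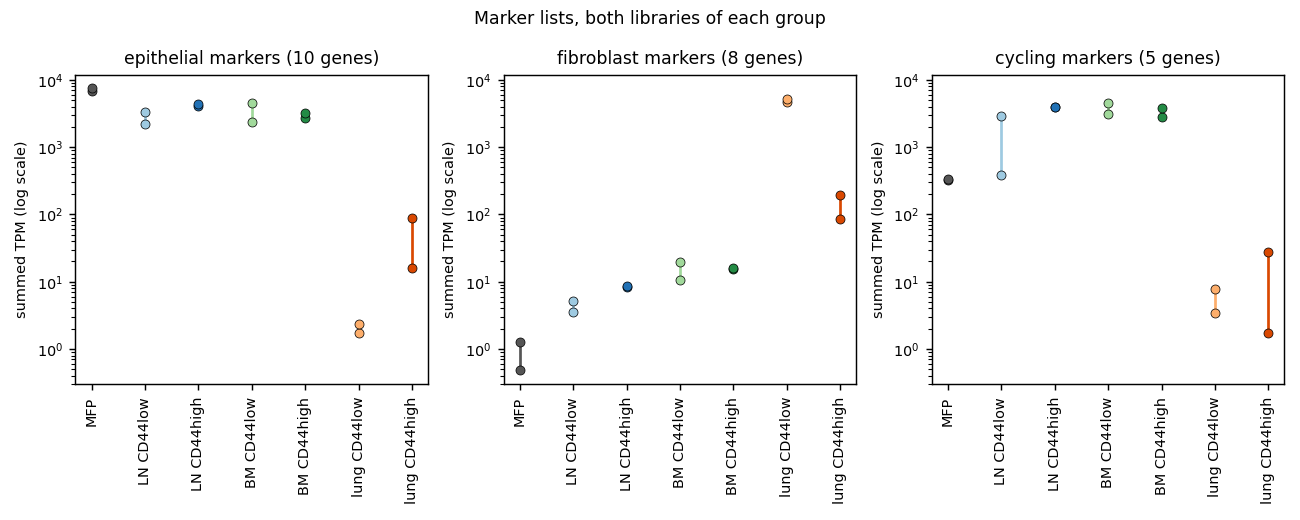
Summed TPM (log scale) of 10 epithelial, 8 fibroblast and 5 cycling markers in the 2 bulk libraries of each group, each library a point and a line joining both. The lung libraries lie below all others for epithelial and cycling markers, and the lung CD44low libraries reach 4708 and 5117 TPM of fibroblast markers.

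Of the 10 genes, 8 reached at least 1 TPM in at least 2 libraries and were tested among 15348 genes with limma on log2(TPM + 1). Spon2 and Smoc2 did not. Thbs2 entered the test only through lung CD44low cells and Vcan only through MFP, so that these entries had to differ somewhere. The counts and medians that include them are given as a description. A gene was called where the absolute log2 fold change was over 2 and the Benjamini-Hochberg adjusted p was under 0.05. The comparisons with MFP share the same 2 MFP libraries and are not independent of each other. Sparc and Postn were called higher and Vcan lower in every one of the 6 metastatic groups, with Postn in LN CD44low cells close to the threshold of size. Against MFP, 3 of the 8 were called in LN CD44low cells, where 4.79% of all genes tested were called, 3 in LN CD44high (6.12%), 3 in BM CD44low (7.16%) and 4 in BM CD44high cells (7.67%). In lung CD44low cells 6 of the 8 were called, 5 of them higher, against 18.8% of all genes called and 11.2% called higher. In lung CD44high cells 5 were called, 3 of them higher, against 13.5% called and 5.42% called higher. The median log2 fold change of the 8 was 4.33 in lung CD44low cells against 0.00 for all genes tested, and between 0.46 and 0.73 in the other 5 groups.

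**Figure D2:**
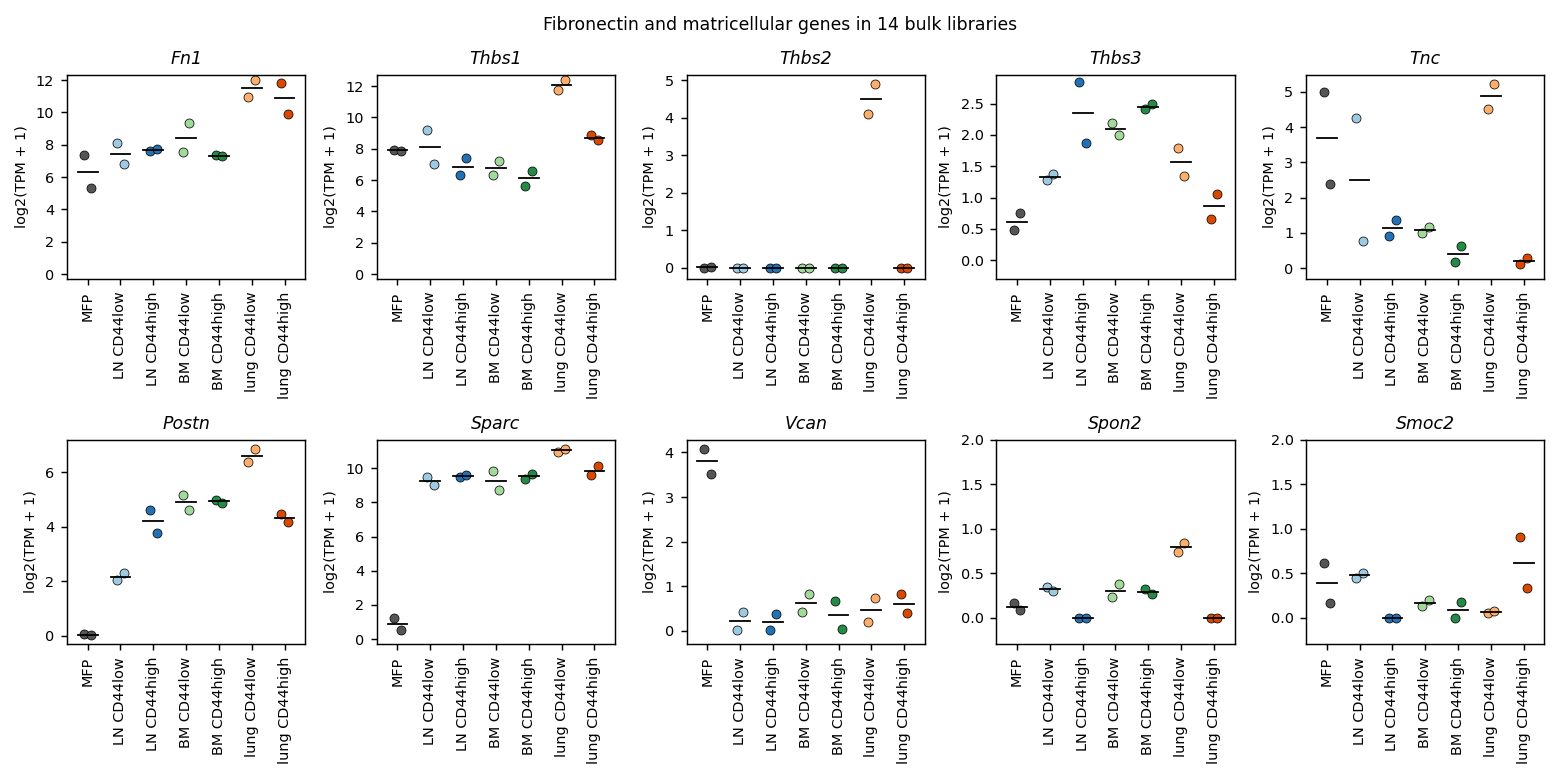
Expression of the 10 genes as log2(TPM + 1) in the 14 bulk libraries, by group, with each library as a point and the group mean as a bar. Sparc and Postn are near the bottom of the axis in MFP alone, Vcan is high in MFP alone, Thbs2 is above 0.02 TPM only in lung CD44low cells, and Fn1 is highest in both lung groups.

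Fn1 (fibronectin 1, ENSMUSG00000026193.15; chromosome 1, 71585520 to 71653200, minus strand; mm10, as for all positions) was highly expressed in all 14 libraries and highest in the lung lines. It was at 161 and 38.6 TPM in the MFP libraries, 272 and 111 TPM in LN CD44low, 192 and 215 TPM in LN CD44high, 184 and 657 TPM in BM CD44low, and 161 and 158 TPM in BM CD44high cells. In lung CD44low cells it reached 2012 and 4136 TPM, and in lung CD44high cells 3669 and 956 TPM. All 4 lung libraries were above the other 10, and the 2 lung groups overlapped each other. The difference from MFP was 5.17 on the log2 scale in lung CD44low cells (SE 0.86, adjusted p = 0.000898) and 4.55 in lung CD44high cells (SE 0.86, adjusted p = 0.00247). The latter call was lost in a fit of only these groups, with an adjusted p of 0.0659. The lung lines together exceeded the LN and BM lines by 3.46 (SE 0.53, adjusted p = 0.000311). The other 4 groups did not differ from MFP by the test, with adjusted p between 0.107 and 0.465. The largest of their estimates, 2.12 in BM CD44low cells, rested on replicate 2: without BM CD44low replicate 1 it was 3.04 with an adjusted p of 0.0415. Between the lung groups the estimate was -0.62 with an SE of 0.86 (adjusted p = 0.655).

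Thbs1 encodes thrombospondin-1, a trimeric matricellular protein that binds CD47 and CD36 and can activate latent TGF-beta (ENSMUSG00000040152.8; chromosome 2, 118111876 to 118127133, plus strand). MFP held 245 and 228 TPM of it, and lung CD44low cells 3398 and 5389 TPM. The LN libraries held 574 and 128 TPM (CD44low) and 79.3 and 168 TPM (CD44high), and the BM libraries between 47.5 and 148 TPM. In lung CD44high cells Thbs1 was at 473 and 373 TPM, inside the range of the LN CD44low libraries. Both lung CD44low libraries stood above the other 12, by 4.17 on the log2 scale against MFP (SE 0.66, adjusted p = 0.000671). Within lung, CD44high cells were lower by 3.35 (SE 0.66, adjusted p = 0.00399). For Fn1 the estimate within lung was also negative but was not called, and the difference between the 2 genes was not tested. None of the other 5 groups was called against MFP, with adjusted p from 0.0729 to 0.923.

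Thbs2 encodes thrombospondin-2, a close relative of thrombospondin-1 made mainly by fibroblasts and without its TGF-beta-activating sequence (ENSMUSG00000023885.9; chromosome 17, 14665500 to 14694235, minus strand). It was at 16.0 and 29.0 TPM in lung CD44low cells and at 0.02 TPM in 1 MFP library. The other 11 libraries listed it at 0, so that no fold is given. It was called in lung CD44low cells against MFP and lower in lung CD44high cells, but it entered the test only through lung CD44low cells, and no p is given. Thbs3, a pentameric thrombospondin (ENSMUSG00000028047.11; chromosome 3, 89215180 to 89226837, plus strand), was low everywhere and had another order. It was at 0.40 and 0.68 TPM in MFP, 1.43 and 1.60 in LN CD44low, 6.20 and 2.65 in LN CD44high, 3.57 and 3 in BM CD44low and 4.32 and 4.63 TPM in BM CD44high cells. Lung CD44low cells held 2.48 and 1.53 TPM and lung CD44high cells 0.58 and 1.08 TPM, the latter overlapping MFP. The adjusted p was under 0.05 against MFP in 4 groups, with log2 differences of 1.74 in LN CD44high, 1.48 in BM CD44low, 1.84 in BM CD44high and 0.95 in lung CD44low cells, all short of the threshold of 2. With a pseudocount of 0.1 TPM the first 3 of these were 2.74, 2.43 and 2.87 and were called. Thbs3 was the tested member whose estimate was lower in lung than in the LN and BM lines, by 0.85 (SE 0.21, adjusted p = 0.0055). Mtx1 overlaps Thbs3 on the opposite strand. The library kit does not mark strand, so that reads in such an overlap cannot be assigned, which also holds for the noncoding genes annotated across Fn1, Thbs1, Tnc, Vcan and Smoc2.

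Tnc encodes tenascin-C, a multi-armed glycoprotein that interferes with adhesion to fibronectin (ENSMUSG00000028364.15; chromosome 4, 63959785 to 64047015, minus strand). MFP held 31.0 and 4.23 TPM of it, LN CD44low cells 18.1 and 0.70 TPM, and lung CD44low cells 21.7 and 36.6 TPM. It was between 0.90 and 1.58 TPM in LN CD44high and BM CD44low, 0.13 and 0.55 TPM in BM CD44high, and 0.09 and 0.23 TPM in lung CD44high cells. The replicates of MFP and of LN CD44low differed widely, and lung CD44low cells overlapped MFP. Within lung, CD44high cells were lower by 4.66 (SE 1.04, adjusted p = 0.00754). Without lung CD44low replicate 2 this was -4.29 with an adjusted p of 0.0643. Against MFP, Tnc was called lower in BM CD44high cells (-3.29, SE 1.04, adjusted p = 0.0404) and lung CD44high cells (-3.48, SE 1.04, adjusted p = 0.0248). Both of these calls were lost without MFP replicate 1, with differences of -1.98 and -2.18 and adjusted p of 0.277 and 0.201. The BM CD44high call was lost on leaving out any 1 of 9 of the 14 libraries, under median-ratio scaling (adjusted p = 0.0581) and in a fit of the compared groups alone (0.104). The lung CD44high call was lost without either lung CD44high library (0.108 and 0.0833) and in the fit of the compared groups alone (0.0961).

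Postn encodes periostin, a fasciclin-domain protein that binds integrins, tenascin-C and collagen and is induced by TGF-beta (ENSMUSG00000027750.16; chromosome 3, 54361109 to 54391037, plus strand). It was nearly absent in MFP, at 0.04 and 0.02 TPM. It was at 3.09 and 3.92 TPM in LN CD44low, 23.6 and 12.6 in LN CD44high, 35.1 and 23.7 in BM CD44low and 30.8 and 28.3 TPM in BM CD44high cells. Lung CD44low cells held the most, 81.3 and 113 TPM, and lung CD44high cells held 21.01 and 16.9 TPM. No library of a metastatic line overlapped MFP, and among the metastatic groups LN CD44low cells stood apart at the low end and lung CD44low cells at the high end. The log2 differences from MFP were 2.12 in LN CD44low, 4.15 in LN CD44high, 4.86 in BM CD44low, 4.89 in BM CD44high, 6.56 in lung CD44low and 4.27 in lung CD44high cells (SE 0.32, adjusted p from 1.73e-07 to 0.00179). Without LN CD44low replicate 2 the LN CD44low difference was 1.99 and short of the threshold of size. The differences are on the log2(TPM + 1) scale, which understates changes from values as low as those of MFP. CD44 status went with opposite differences in the 2 organs where Postn was called. In LN, CD44high cells were higher by 2.03 (SE 0.32, adjusted p = 0.0363), 1 of 8 members called against 0.208% of all genes. In lung, CD44high cells were lower by 2.29 (SE 0.32, adjusted p = 0.000516), and in BM the estimate was 0.03 (adjusted p = 1). The CD44 difference in lung was below that in LN by 4.32 (SE 0.46, adjusted p = 0.000115) and below that in BM by 2.32 (SE 0.46, adjusted p = 0.00678). The LN call was the least secure: its adjusted p was 0.476 in a fit of the 2 LN groups alone, and it was lost on leaving out any 1 of 10 of the 14 libraries, with adjusted p from 0.0596 to 0.25.

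Sparc encodes osteonectin, a collagen-binding glycoprotein that acts in collagen processing and in cell rounding (ENSMUSG00000018593.13; chromosome 11, 55394500 to 55423183, minus strand). On the log2(TPM + 1) scale it had the largest differences of the 8 tested genes from MFP. In MFP it was at 1.39 and 0.42 TPM. The LN libraries held 708 and 520 TPM (CD44low) and 709 and 768 TPM (CD44high), and the BM libraries 903 and 427 TPM (CD44low) and 652 and 823 TPM (CD44high). Lung CD44low cells reached 1977 and 2242 TPM and lung CD44high cells 762 and 1126 TPM. The lowest metastatic library was at 427 TPM, and lung CD44low cells were above the rest without overlap, while the other 5 metastatic groups formed an overlapping series. The log2 differences from MFP lay between 8.37 and 10.16 (SE 0.38, adjusted p from 2.31e-08 to 7.04e-07). Within lung the difference was -1.18 (SE 0.38, adjusted p = 0.0381), under the threshold of size. The lung lines exceeded the LN and BM lines by 1.05 (SE 0.23, adjusted p = 0.00293), also under it.

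Vcan encodes versican, a large chondroitin sulfate proteoglycan that binds hyaluronan (ENSMUSG00000021614.16; chromosome 13, 89655312 to 89742509, minus strand). It was high in MFP alone. MFP held 15.9 and 10.4 TPM, and the other 12 libraries between 0.02 and 0.78 TPM. The log2 differences ranged from -3.59 in LN CD44high to -3.18 in BM CD44low cells (SE 0.33). Since Vcan entered the test only through MFP, no p is given for them. Each of the 6 metastatic groups overlapped the next in order of level, and none of the CD44 comparisons was called. Over the 14 libraries log2 values of Sparc and Vcan had a Pearson r of -0.95, with the 2 MFP libraries apart from the other 12, and no p is given for it.

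The RefSeq promoter table used here (GRCm38.p6) matched 6 of the 10 genes, and the 250 bases before the start were searched for 6 motifs. The sequence is shown for the 4 of these 6 whose window held no exon of the gene itself and no other protein-coding gene. Postn and Vcan were called against MFP in all metastatic groups, and Tnc and Thbs2 between CD44high and CD44low lung cells. The motifs were searched on both strands, and capitals mark the matches, none of which overlapped another.
Postn, chr3:54360857-54361106, plus strand: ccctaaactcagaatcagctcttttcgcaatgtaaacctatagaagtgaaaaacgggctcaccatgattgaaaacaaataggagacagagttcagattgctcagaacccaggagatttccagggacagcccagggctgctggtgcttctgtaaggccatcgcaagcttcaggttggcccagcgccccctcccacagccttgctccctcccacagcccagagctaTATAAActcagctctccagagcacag
Vcan, chr13:89742513-89742762, minus strand: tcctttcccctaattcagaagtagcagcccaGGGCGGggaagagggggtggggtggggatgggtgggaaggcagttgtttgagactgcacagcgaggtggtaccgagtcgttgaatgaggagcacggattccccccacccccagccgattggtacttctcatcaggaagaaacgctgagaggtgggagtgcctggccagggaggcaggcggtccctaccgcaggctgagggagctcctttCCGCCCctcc
Tnc, chr4:64047016-64047265, minus strand: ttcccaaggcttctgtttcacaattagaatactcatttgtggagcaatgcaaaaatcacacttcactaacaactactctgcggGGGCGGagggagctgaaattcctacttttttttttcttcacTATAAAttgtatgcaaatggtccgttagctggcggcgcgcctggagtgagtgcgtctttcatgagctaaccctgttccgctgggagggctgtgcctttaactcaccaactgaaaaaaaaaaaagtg
Thbs2, chr17:14694263-14694512, minus strand: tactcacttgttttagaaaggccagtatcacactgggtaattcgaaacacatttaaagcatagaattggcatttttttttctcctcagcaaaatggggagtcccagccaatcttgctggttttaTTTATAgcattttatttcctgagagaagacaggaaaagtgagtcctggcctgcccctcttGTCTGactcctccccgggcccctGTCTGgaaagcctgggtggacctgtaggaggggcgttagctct
The Postn window held 1 match, a TATA box 26 bases before the start. The Vcan window held 2 GC boxes and no TATA box, and its GC content was 62.4% against 52% for Postn, 44.8% for Tnc and 46.8% for Thbs2. The Tnc window held 1 GC box and 1 TATA box, and the Thbs2 window 1 TATA box, on the reverse strand, and 2 SMAD matches. Both of these TATA box matches spanned positions -126 to -121 from the start, against -26 to -21 in Postn. Of all 32851 promoters, 12.4% held the TATA box, searched as TATAAA. The GC box, searched as GGGCGG, was in 32.7% of all promoters, and the SMAD letters, searched as CAGAC, in 42.2%. The AP-1 motif, searched as TGANTCA, was in 6.75% of all promoters and in none of the 6 windows. The same held for the TEAD motif, searched as GGAATG and present in 12.6% of promoters, and for the CRE, searched as TGACGTCA and present in 1.55%. The remaining windows held 1 GC box (Thbs3) and 1 SMAD match (Sparc). A match describes letters and not a binding site, and the absence of a match says only that these letters are not in the window.

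Spon2, a spondin that also acts as an innate immune pattern recognition molecule (ENSMUSG00000037379.7; chromosome 5, 33198184 to 33218455, minus strand), was at most 0.79 TPM. Its highest values were 0.67 and 0.79 TPM, in lung CD44low cells, and both lung CD44high and both LN CD44high libraries listed it at 0. Smoc2, a SPARC-related calcium-binding protein (ENSMUSG00000023886.10; chromosome 17, 14279506 to 14404790, plus strand), was highest in lung CD44high cells, at 0.87 and 0.26 TPM, and at 0.04 and 0.05 TPM in lung CD44low cells. Neither was tested, and at these levels no difference between groups can be read from the bulk libraries.

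**Figure D3:**
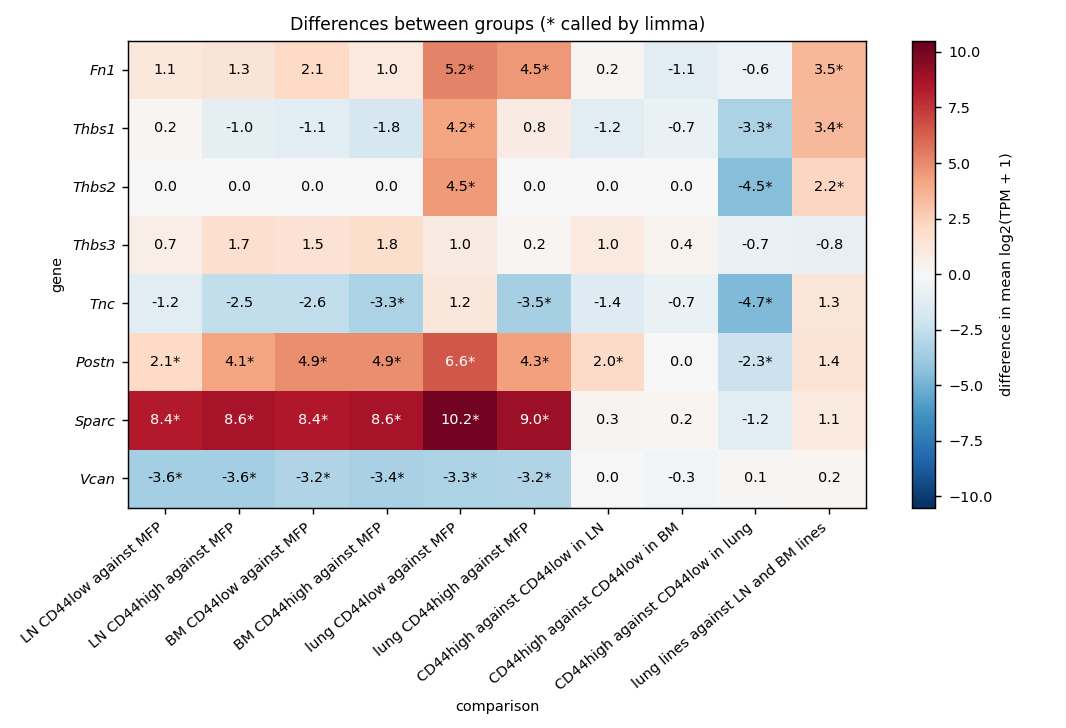
Differences in mean log2(TPM + 1) for the 8 tested genes in 10 comparisons, with an asterisk where limma called the gene (absolute difference over 2 and adjusted p under 0.05). Sparc and Postn are called higher and Vcan lower in all 6 comparisons with MFP. For Thbs2, groups listed at 0 make the size depend on the pseudocount of 1 TPM.

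By CD44 status, calls among these genes were mostly in lung. There, 4 of the 8 were called, all lower in CD44high cells (Thbs1, Tnc, Postn and, as the way it entered the test required, Thbs2), against 11.3% of all genes tested called and 8.8% called lower. The median of the 8, Thbs2 among them, was -1.74 against -0.01 for all genes and is given as a description. Over the same comparison 7 of 8 fibroblast markers were called lower, of which Lum, Thy1, Col1a2 and Col3a1 entered the test only through lung CD44low cells, and the part of these cells in the result was not tested. In BM none was called by limma, and none had an unadjusted p under 0.05, against 0.104% of all genes called. The CD44 difference in lung differed from that in LN (10.4% of all genes called) and from that in BM (8.66%) for Postn. Thbs2 was also called in both, but it was listed at 0 in all LN, BM and lung CD44high libraries, so that these contrasts repeat its lung difference. For Thbs1 and Tnc these interaction tests had adjusted p between 0.0888 and 0.151, so that a difference between organs was not established for them. Leaving out LN CD44low replicate 1, which held 574 TPM of Thbs1 and 18.1 TPM of Tnc against 128 and 0.70 TPM in its partner, brought both past the threshold against LN, at -3.20 and -5.04. Leaving out its partner instead moved the estimates the other way, to -1.04 and -1.54 (adjusted p = 0.366 and 0.369), so that the values against LN rest on which of the 2 libraries is kept. Without either LN CD44low library both were past the threshold against BM, at -2.67 and -3.99. In a limma fit of only the groups compared both were also called against BM, with adjusted p of 0.0497 for Thbs1 and 0.00312 for Tnc. Under median-ratio scaling Thbs1 was called against BM (-2.93, adjusted p = 0.0353). The calls against BM thus depend on the fit. The lung lines together differed from the LN and BM lines for 3 members, all higher (Fn1, Thbs1 and Thbs2), against 12.7% of all genes called and 7.13% called higher. Of these, the 4 lung libraries lay wholly above the 8 LN and BM libraries for Fn1 alone.

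The receptors, processing enzymes and relatives of these proteins were read from fixed lists in lung CD44low cells against MFP, a comparison in which 18.8% of all genes tested were called and 11.2% called higher. Of 11 tested fibronectin receptor and assembly genes, 2 were called higher and 1 lower, shares near those of all genes. Itgb5, an integrin beta chain that binds vitronectin with alpha v, was at 239 and 668 TPM in lung CD44low, 339 and 185 TPM in lung CD44high and at most 56.2 TPM in the other libraries (4.75, SE 0.53, adjusted p = 6.47e-05). Tns1, tensin-1, which links fibronectin-bound integrins to actin, was at 84.8 and 81.0 TPM in lung CD44low cells and at most 5.18 TPM elsewhere (5.29, SE 0.57, adjusted p = 4.61e-05). Itgb6, the epithelial integrin beta chain, was lower in all 6 metastatic groups, from 31.9 and 22.9 TPM in MFP to between 0 and 3.5 TPM (-4.79 in lung CD44low, adjusted p = 5.19e-07). The chains of the main fibronectin receptor, Itga5 and Itgb1, were not called in any comparison.

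Among 4 tested relatives of the 10 genes, 3 were called higher and none lower in lung CD44low cells, against 11.2% of all genes called higher. Fstl1, a SPARC-family protein, was at 211 and 324 TPM in those cells and at most 0.33 TPM elsewhere, so that, like Thbs2, it entered the test only through lung CD44low cells and had to differ. Smoc1 and Spp1 were instead called higher in all 6 metastatic groups, as Sparc was. Smoc1, the relative of Smoc2, was at 0.07 and 0.03 TPM in MFP and between 4.36 and 46.9 TPM in the other libraries. Spp1, osteopontin, was at 207 and 62.3 TPM in MFP and between 793 and 9361 TPM in the others. Of 3 tested thrombospondin receptors, Lrp1, an endocytic receptor, was called (7.62, SE 0.72, adjusted p = 1.99e-05), at 229 and 437 TPM in lung CD44low cells. Cd47 was not called in any comparison, and Cd36 was at most 0.85 TPM and untested.

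Of the hyaluronan partners of versican, 1 of 3 tested was called lower in lung CD44low cells and none higher. This was Cd44 itself, the hyaluronan receptor used for the sort, which had 400 and 210 TPM in the MFP libraries against 12.2 and 21.6 TPM in lung CD44low cells (-4.07, SE 0.44, adjusted p = 5.05e-05). Its mRNA did not follow the sort labels: the lung fractions overlapped, with 21.95 and 12.1 TPM in CD44high cells, and in LN the CD44low cells held 146.7 and 82.7 TPM against 49.04 and 52.3 TPM in CD44high cells. The BM fractions overlapped, at 43.8 and 74.9 TPM against 50.5 and 49 TPM, and Cd44 was not called between the fractions of any organ. In the single-cell library lungL, labelled CD44low, Cd44 made up 8.51 per 10000 counts. All 7 listed hyaluronan partners, Cd44 among them, together made up 5.52 per 10000 in lungH and 4.61 in lymphH, both labelled CD44high. Of 4 tested proteases, 1 was called higher: Adamts5, a versican-cleaving enzyme, at 72.1 and 100 TPM in lung CD44low, 6.23 and 8.80 TPM in lung CD44high and at most 1.06 TPM in the other libraries (5.73, SE 0.30, adjusted p = 2.31e-07). Among the 5 TGF-beta ligands and receptors, 3 were called higher, against 11.2% of all genes. Tgfb3 had 0.37 and 0.06 TPM in the MFP libraries, against 39.98 and 46.7 TPM in lung CD44low and 142 and 125 TPM in lung CD44high cells (5.20, SE 0.27, adjusted p = 2.59e-07). Tgfb2 was at 0.94 and 1.62 TPM in MFP and between 7.92 and 44.1 TPM in the other 12 libraries. Both ligands were called higher in all 6 metastatic groups.

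The genes most like each member over the 14 libraries were ranked by Pearson r of log2 values. These values follow the few group steps described here, and neighbouring genes share libraries, so that no p is given. Fn1 was followed most closely by Atf5 (0.97), Itgb5 (0.96) and Phf21a (0.96), and Thbs1 by Ppfibp1, Zyx and Csf1 (0.95 each). Sparc was followed by Efemp2 (0.98), Serpinh1 (0.97) and Zfp521 (0.97), of which Serpinh1 is the collagen chaperone HSP47. Postn was followed by Fah (0.98), Dab2 (0.98) and Sesn1 (0.94), and Tnc by Npnt (0.94), Ccbe1 (0.93) and Clic4 (0.92). Vcan was followed by Gm26542 (0.99), Padi4 and Slc6a14 (0.98 each), and Thbs3 by S100b (0.94), Slc1a1 and Trib2 (0.92 each). For Thbs2 the values of Epha3, Hsf4 and Jph2 rest on the 2 lung CD44low libraries. Among the members, Thbs1 and Thbs2 had r = 0.86, Postn and Sparc 0.85 and Fn1 and Thbs1 0.73.

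The single-cell libraries give the spread between cells of 3 of these lines. The lungL library held 348 cells with over 250 genes and under 10% mitochondrial counts (median 4011 counts), lungH 1236 cells (median 557) and lymphH 2562 cells (median 585). The methods speak of replicate isolates, but the labels give 1 sample per line and its table does not tell isolates apart, so that each is treated as 1 library and the spread between cells may include isolates. With 1 library per line no test is possible, and the intervals given are exact 95% limits that cover counting error only. Summed over cells, Fn1 made up 54.2 per 10000 counts in lungL (53.3 to 55.2), 35.0 in lungH (34.3 to 35.8) and 4.58 in lymphH (4.39 to 4.76). Thbs1 made up 48.7 (47.8 to 49.7), 9.09 (8.70 to 9.50) and 4.93 (4.74 to 5.12) in the same order. Sparc made up 14.7 (14.2 to 15.2), 7.50 (7.15 to 7.87) and 3.26 (3.11 to 3.42). Each of the 3 genes thus had the order lungL, lungH, lymphH, and Thbs1 differed most between the lung libraries.

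**Figure D4:**
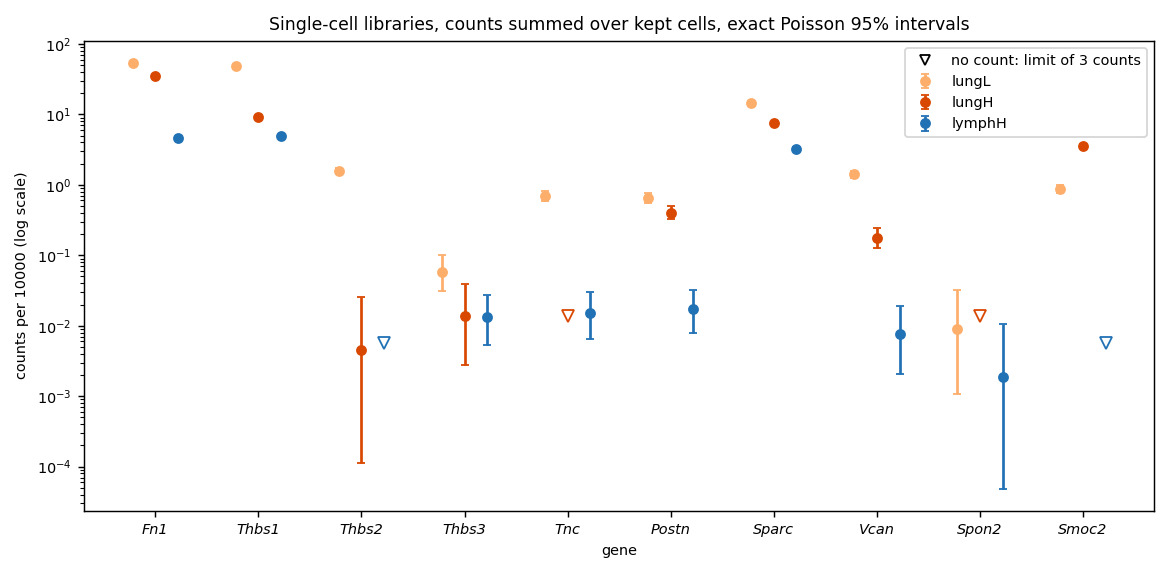
Counts per 10000 (log scale) of the 10 genes in the lungL, lungH and lymphH libraries, summed over kept cells, with exact Poisson 95% intervals; open triangles mark genes without a count, at the level of 3 counts. Fn1, Thbs1 and Sparc lie above 3 per 10000 in all libraries, and Smoc2 is the gene that is higher in lungH than in lungL.

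The remaining members were sparse. Thbs2 had 348 counts in lungL (1.57 per 10000, 1.41 to 1.74), 1 count in lungH and none in lymphH, where 3 counts would correspond to 0.00567 per 10000. Tnc had 154 counts in lungL (0.693, 0.588 to 0.812), none in lungH and 8 in lymphH. Postn was at 0.657 (0.555 to 0.773) in lungL, 0.403 (0.323 to 0.495) in lungH and 0.017 (0.00778 to 0.0323) in lymphH, but in cells with up to 2000 counts the lung order turned, with 0.36 (4 counts) in lungL and 0.639 (38 counts) in lungH. Vcan was at 1.42 (1.27 to 1.59), 0.176 (0.125 to 0.241) and 0.00757 (0.00206 to 0.0194) in the same order. Smoc2 went the other way between the lung libraries, at 0.874 (0.755 to 1.01) in lungL and 3.596 (3.35 to 3.86) in lungH, with no count in lymphH. Thbs3 had 13, 3 and 7 counts and Spon2 2, 0 and 1.

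For Vcan, Smoc2, Postn and several markers the single-cell and bulk libraries of the same labelled line held different pictures. Bulk TPM are scaled by transcript length, while the single-cell kit reads 3' ends. Levels of different genes are thus not on the same scale in both, and ratios between 2 genes cannot be compared directly across them. Vcan was at 0.15 and 0.66 TPM in bulk lung CD44low cells, below Thbs2 at 16.0 and 29.0 TPM, yet the 2 genes were at 1.42 and 1.57 per 10000 in lungL. Smoc2 did not exceed 0.87 TPM in any bulk library and was in 18.7% of lungH cells (16.6% to 20.98%). Postn overlapped between bulk LN CD44high and lung CD44high cells, at 23.6 and 12.6 TPM against 21.01 and 16.9 TPM, but was at 0.017 per 10000 in lymphH against 0.403 in lungH. In bulk lung CD44low cells Postn, at 81.3 and 113 TPM, was above Thbs2, whereas in lungL it was at 0.657 against 1.57 per 10000. Among fibroblast markers, Dcn led the bulk lung CD44low libraries at 4091 and 4315 TPM but had 22 counts in lungL, 0.0991 per 10000, where Col1a1 had 965 counts and Acta2 10116. Lum, another fibroblast proteoglycan, was at 362 and 217 TPM in the same bulk libraries and had no count in lungL. The cycling markers, low in all bulk lung libraries, were at 2.84 per 10000 in lungL, 9.85 in lungH and 12.8 in lymphH. Krt18 was at 2.59 per 10000 in lungH and 1.17 in lymphH, against 10.1 and 58.9 TPM in bulk lung CD44high and 853 and 743 TPM in bulk LN CD44high cells. Epcam had no count in lungL, 3 in lungH and 936 in lymphH. The 10 epithelial markers summed to 0.878 per 10000 in lungL, with 6 of them at 0, 4.28 in lungH and 9.72 in lymphH, and the 8 fibroblast markers to 21.4, 0.267 and 0.115. Their part in the differences between the libraries was not tested. Whether the bulk and single-cell libraries came from the same isolate is not given.

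Because cells of the 3 libraries differed in depth, shares of cells were compared after drawing each cell down to 400 counts. At that depth Fn1 was in 61.0% of 344 lungL cells (55.7% to 66.2%), 45.4% of 1234 lungH cells (42.6% to 48.2%) and 8.36% of 2416 lymphH cells (7.29% to 9.54%). Before thinning the shares were 77.0%, 54.4% and 17.5%. Thbs1 was in 58.7%, 19.8% and 10.2% of thinned cells, and Sparc in 36.9%, 22.04% and 9.52%. Barcodes that failed the filters also held these transcripts, with Fn1 at 16.5, 23.4 and 3.72 per 10000 in lungL, lungH and lymphH. Free RNA was not separately measured, and its part in these shares was not tested.

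Cells with over 2000 counts, 206 in lungL, 194 in lungH and 254 in lymphH, were thinned to 2000 to compare the spread between cells. Fn1 had a median of 10 counts in lungL (10th percentile 1, 90th percentile 28), 7 in lungH (2 and 16.7) and 1 in lymphH (0 and 3). It was found in 98.97% of lungH and 92.7% of lungL cells, so that lungL held both the cells with the most Fn1 and more cells without it. Thbs1 had medians of 7.5, 1 and 0 counts, and Sparc of 2, 1 and 0. In lungL, Spearman's rho across cells was 0.54 between Fn1 and Thbs1, 0.42 between Fn1 and Sparc and 0.44 between Thbs1 and Sparc. The same values were 0.22, 0.16 and 0.08 in lungH and 0.26, 0.17 and 0.06 in lymphH. With the summed fibroblast markers, found in 76.7% of lungL cells, rho was 0.60 for Fn1, 0.69 for Thbs1 and 0.49 for Sparc, and with cycling markers -0.35, -0.39 and -0.31. In lungH, where 4.64% of cells had a fibroblast marker count, rho with these markers was 0.03 for Fn1 and 0.10 for Thbs1. These values describe cells of 1 library each and share its composition.

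**Figure D5:**
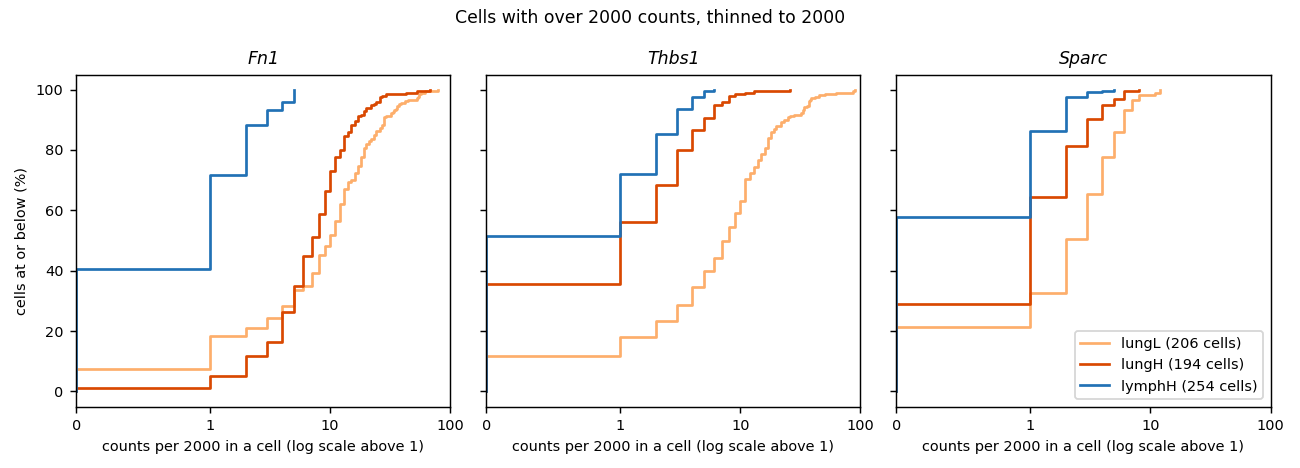
Cumulative share of cells (%) against Fn1, Thbs1 and Sparc counts per cell, for cells with over 2000 counts thinned to 2000 (206 lungL, 194 lungH and 254 lymphH cells; the count axis is linear to 1 and logarithmic above). The lungL and lungH curves for Fn1 lie far to the right of lymphH and cross at low counts, while for Thbs1 lungH lies nearer to lymphH.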

How the data were processed

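The deposited bulk values are TPM, which the authors made from modified SMART-seq2 libraries with STAR (mm10) and RSEM on GENCODE v21, and which sum to 1000000 in each of 14 libraries. The deposited single-cell values are whole-number counts per gene and barcode, which the authors made from ddSeq SureCell libraries with kallisto. Collapsing by molecular identifier is not given in the sources used here, and barcodes are numbered, so that barcodes shared between libraries could not be counted. The methods give a minimum sequencing depth for the bulk libraries but no depth per library, so no counting interval is given for TPM.

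The members and lists were chosen with earlier results of these data known. The log2(TPM + 1) values entered 1 model of 7 group means in limma 3.58.1 (R 4.3.3, lmFit and eBayes with trend=TRUE, 7 residual degrees of freedom) for the 15348 genes that reached 1 TPM in 2 or more libraries. Adjusted p-values are Benjamini-Hochberg values over all genes tested. The authors' edgeR test needs read counts, which are not used here. All 10 members are described. Lists of receptors, relatives, proteases and TGF-beta genes are given by their counts with up to 4 genes named by the largest change, and the 3 genes with the highest r are named for each member.

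The 348, 1236 and 2562 kept cells of lungL, lungH and lymphH held 2220759, 2210623 and 5287425 counts. Intervals are exact Poisson or binomial 95% limits (scipy 1.17.1). Doublets were not called, since no cell types were compared. The fit and the thinning were tested on simulated data.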

Additional observations from a re-analysis of the deposited data

Results flagged for a closer look

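The CD44high minus CD44low difference in lung was compared with the same difference in the other organs by an interaction contrast in limma, with Benjamini-Hochberg adjustment over all genes tested. For Thbs2 the fitted contrast was -4.50 on the log2(TPM + 1) scale against both LN and BM. Thbs2 was listed at 0 in all LN, BM and lung CD44high libraries and entered the test only through lung CD44low cells, so the contrast restates its lung difference, its size depends on the pseudocount and it is no independent test. For Postn the contrast was -4.32 against LN (adjusted p = 0.000115) and -2.32 against BM (adjusted p = 0.00678). For Thbs3 it was -1.74 against LN (adjusted p = 0.0297), short of the threshold of size but past it with a pseudocount of 0.1 TPM (-2.56), and -1.07 against BM (adjusted p = 0.18), with LN CD44high cells at 6.20 and 2.65 TPM and lung CD44high cells at 0.58 and 1.08 TPM.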

How the results depend on the processing

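The settings were pseudocounts, filters, scaling, the replicate block, fits of the compared groups alone, the adjusted p alone and left-out libraries. Of 2004 recomputed log2 differences, 1940 kept their side of the threshold, 32 lost the call and 32 gained it. Where the gene was called in either fit, 0 changed direction, and changes of direction without a call were not counted. Leaving out a library outside a comparison changes only the estimate of spread, so that many of these log2 differences could not move. The adjusted p alone refits nothing. Of 252 recomputed counts of members called, 234 stayed within 1.5 times the reported count. In fits of only the groups compared, 3 members rather than 5 were called in lung CD44high cells against MFP, 0 rather than 1 between LN CD44high and CD44low cells, and 4 rather than 2 for the CD44 difference in lung minus that in BM. Why the calls changed in these fits was not tested. With the adjusted p alone, 6 rather than 3 were called between the lung and the LN and BM lines. The added members were Sparc (1.05), Postn (1.41) and Thbs3 (-0.85), which the threshold of size had left out.

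With a replicate block, the count between LN CD44high and CD44low cells was 0 instead of 1 (Postn, adjusted p = 0.0586), and the other 11 counts did not change. Same-numbered libraries did not deviate together: over 21 pairs of groups the correlation of their deviations ran from -0.19 to 0.17, and 3 were over 0.1.

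On leaving out each library in turn, the count of members called ran from 2 to 4 in LN CD44low, 3 to 4 in LN CD44high, BM CD44low and BM CD44high, 6 to 6 in lung CD44low and 4 to 5 in lung CD44high cells against MFP. Between CD44high and CD44low cells it ran from 0 to 1 in LN, 0 to 0 in BM and 3 to 4 in lung, and for the CD44 difference in lung minus that in LN or BM from 2 to 4. It was 3 throughout for the lung against the LN and BM lines. Where a left-out library leaves 1 in a group, that library is assumed to vary like the other groups.

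Tnc in BM CD44high and lung CD44high cells against MFP was also lost without a filter on low values (adjusted p = 0.0901 and 0.0582). Scaling by median ratios moved the log2 differences of all genes tested by a median of 0.12 to 0.48 against MFP. Between the lung and the LN and BM lines the median move was -0.24. No member called in either fit changed direction. Of 210 single-cell levels recomputed over other sets of cells or as means over cells, 57 moved beyond the counting interval. In cells with up to 2000 counts, a split chosen after seeing the data, Fn1 in lymphH was 2.30 per 10000 instead of 4.58, Thbs1 in lymphH 2.79 instead of 4.93, Thbs2 in lungL 0.81 instead of 1.57 and Smoc2 in lungL 0.45 instead of 0.874. Vcan was 0.81 in lungL and 0.101 in lungH instead of 1.42 and 0.176, and Tnc in lungL 1.08 instead of 0.693. Postn was 0.36 in lungL and 0.639 in lungH, which turns their order. As means over cells Fn1 and Thbs1 in lymphH were 2.57 and 2.998. The depth of each bulk library is not given in the sources used here, and genes below 1 TPM, such as Spon2 and Smoc2, could not be compared.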
